A study of Homo sapiens with 6 samples.

Results

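The genes described are the EGF receptor family and its ligands in 786-O, a human cell line grown from a renal cell carcinoma, which lacks a working VHL tumour suppressor. Members were the rows of the gene count table named EGFR, ERBB2 or ERBB3 (receptors), HBEGF, AREG, EREG, TGFA, EGF or BTC (ligands), or ERRFI1 (a cytoplasmic inhibitor). All 10 were found among the 58735 genes, and all 10 passed the low count filter that left 14573 genes for testing. The 6 libraries of messenger RNA fell into 2 groups of 3, numbered 1, 2 and 3: cells given a hairpin RNA that targets CBX7 (sh-CBX7) and cells given a control hairpin (sh-Control). CBX7 is a chromobox subunit of Polycomb repressive complexes, and the series title links it to RNF26, TNF signalling, growth and kinase inhibitor response in clear cell renal carcinoma. The labels name no hairpin sequence, and they do not say whether the cells were a pool or a clone, or whether the 3 libraries were grown separately. P-values are thus set against a spread between libraries that may be technical.

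Receptors of this family are tyrosine kinases at the cell surface that pair up when a ligand binds and then signal through RAS, ERK and PI3 kinase. The ligands are made as membrane-bound precursors and are released by ADAM proteases. EGF, TGFA and AREG bind EGFR, whereas HBEGF, BTC and EREG bind both EGFR and ERBB4. ERBB2 has no known ligand and acts as a partner, and ERBB3 binds neuregulins but has little kinase activity of its own. ERRFI1, also called MIG6, binds the kinase domain of active receptors and switches it off. In renal carcinoma without VHL, TGFA is a known target of hypoxia-inducible factor.

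Upstream sequences are shown for HBEGF, which had the largest rise of the ligands, and for EREG and AREG, which lie next to each other on chromosome 4 and were measured at different fold changes. Each run is the 250 bases before the RefSeq gene start on GRCh38.p14, written 5′ to 3′ on the gene's own strand, with motif matches on either strand in capitals. HBEGF lies at chr5:140346604-140346853 on the minus strand, EREG at chr4:74364895-74365144 and AREG at chr4:74444886-74445135, both on the plus strand.
HBEGF: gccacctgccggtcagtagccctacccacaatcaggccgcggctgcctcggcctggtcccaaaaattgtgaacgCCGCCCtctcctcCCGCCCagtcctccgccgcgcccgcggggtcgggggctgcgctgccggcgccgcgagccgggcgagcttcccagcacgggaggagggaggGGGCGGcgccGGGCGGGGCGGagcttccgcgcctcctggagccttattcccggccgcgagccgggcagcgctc
EREG: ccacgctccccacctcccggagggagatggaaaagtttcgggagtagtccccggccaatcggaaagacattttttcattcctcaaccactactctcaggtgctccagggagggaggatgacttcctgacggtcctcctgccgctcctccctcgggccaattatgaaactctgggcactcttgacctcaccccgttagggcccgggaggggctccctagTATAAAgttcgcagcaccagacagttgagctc
AREG: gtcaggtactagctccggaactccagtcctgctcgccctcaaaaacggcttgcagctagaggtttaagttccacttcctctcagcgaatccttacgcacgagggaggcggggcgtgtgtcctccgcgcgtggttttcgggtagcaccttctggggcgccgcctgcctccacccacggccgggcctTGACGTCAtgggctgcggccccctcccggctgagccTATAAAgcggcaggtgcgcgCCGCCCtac
The HBEGF run held 5 matches to the GC box letters GGGCGG, 2 of which share a base, and none to the TATA box letters TATAAA. Both EREG and AREG held TATAAA once, starting at -32 in EREG and at -29 in AREG, where -1 is the last base before the gene start. AREG alone of the 9 members with an entry held the cAMP response element TGACGTCA, starting at -65. Of all 35116 RefSeq entries cut to the same 250 bases, 42.6% held GGGCGG, 10.7% TATAAA and 1.65% TGACGTCA. The letters TGANTCA, in which N is any base, are a loose form of the AP-1 site and were held by 6.57% of entries. They were found before ERBB2, EGF and the second of 2 EGFR starts. The match before ERBB2 read TGATTCA, whereas those before EGF and EGFR read TGAGTCA or TGACTCA, the usual AP-1 letters. ACGTG (18.5% of entries), CACGTG (6.34%, each of which also holds ACGTG) and GGGNNTTCC (5.78%) were found before none of the members with an entry. Such a match is a string of letters and was not tested for binding.

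Library totals ran from 16473407 to 18868874 counts in sh-CBX7 and from 16384151 to 18006814 in sh-Control. CBX7 itself had 143, 111 and 142 counts in the sh-CBX7 libraries, against 203, 240 and 183 in the sh-Control libraries, so its transcript was still present in each sh-CBX7 library (log2 fold change -0.71, SE 0.13, edgeR adjusted p = 5.41e-05). All 8 renal epithelial markers examined, among them PAX8, KRT8 and VIM, were detected, at a summed level of 3463 to 3687 CPM (counts scaled to the library size) in sh-CBX7 and 3361 to 3495 CPM in sh-Control. Immune markers summed to 1.01 to 2.09 CPM in sh-CBX7 and 1.32 to 2.10 CPM in sh-Control, with PTPRC and CD3E at 0 in every library. Endothelial markers summed to 3.86 to 5.04 CPM in sh-CBX7 and 2.22 to 3.13 CPM in sh-Control, with CDH5 and EMCN at 0, and fibroblast markers to 11.1 to 12.9 CPM in sh-CBX7 and 11.1 to 12.6 CPM in sh-Control.

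Of the 10 members, 4 rose (HBEGF, BTC, TGFA and ERRFI1), 4 fell (EGFR, ERBB2, ERBB3 and AREG) and 2 were not called (EREG and EGF) at an edgeR adjusted p below 0.05. The call of ERBB3 rests on 1 to 23 counts per library, entered the test through the sh-Control counts and was lost without either of 2 single libraries, so it is counted here only for completeness; the call of TGFA was also lost without either of 2 single libraries. In the same comparison 53.3% of all genes tested were called, 26.1% higher and 27.2% lower, so a call by itself sets no gene apart. The members' median log2 fold change was -0.11, against -0.01 over all genes tested. CPM values of the groups did not overlap for 8 of the 10 members and for 59.0% of all genes tested. Levels below are CPM after TMM normalisation, given in the order of libraries 1, 2 and 3. In bulk samples like these, fewer cells that make a transcript and less of it in each cell cannot be told apart.

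**Figure D1:**
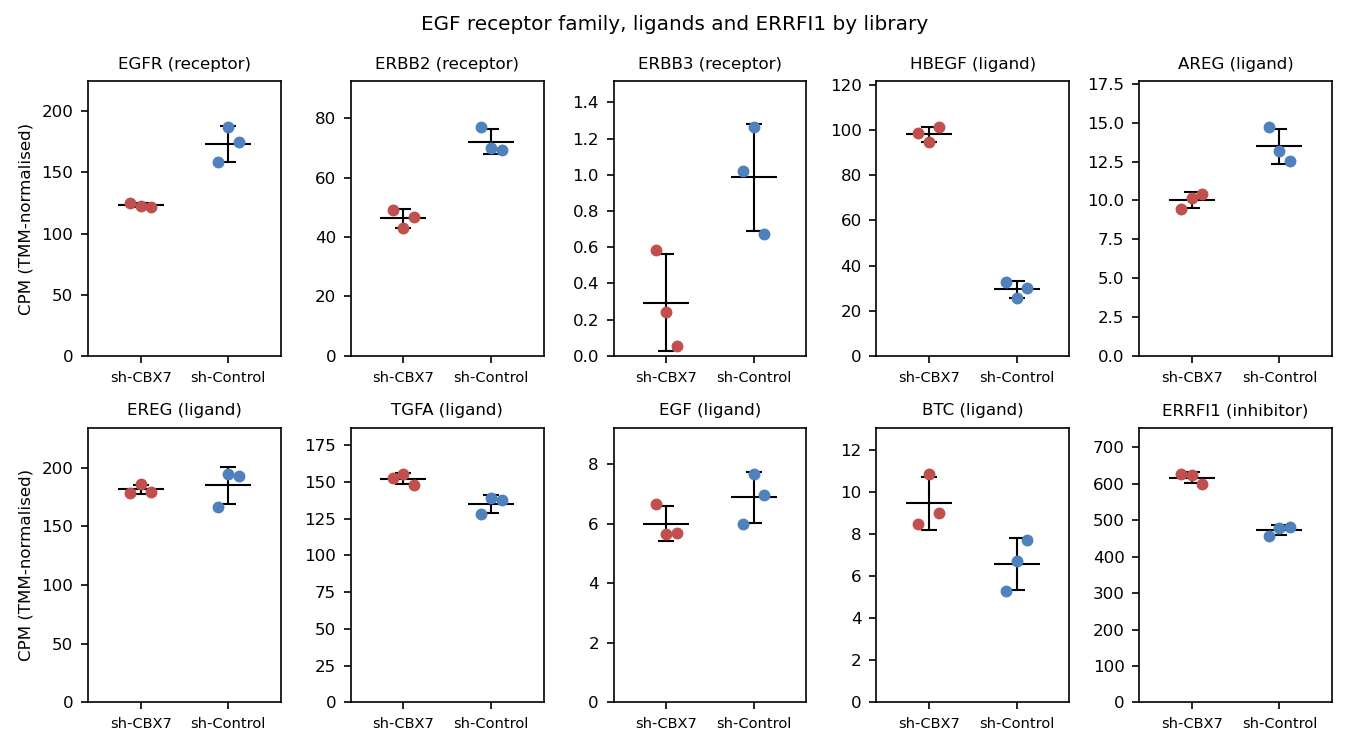
Level of each member in TMM-normalised CPM (y axis from 0) in 3 sh-CBX7 libraries (red) and 3 sh-Control libraries (blue); black lines are the mean and SD. The groups are apart for all members other than EREG and EGF, and the ratio between the groups is largest, among members above 1 CPM in each library, for HBEGF, at 94.7 to 101 CPM in sh-CBX7 and 25.5 to 32.9 CPM in sh-Control.

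The well-expressed receptors EGFR and ERBB2 were lower in sh-CBX7. EGFR, the main receptor of the ligands measured here (ENSG00000146648; GRCh38 chromosome 7, 55019021 to 55211628, plus strand), had 125, 123 and 122 CPM in sh-CBX7, against 158, 187 and 175 CPM in sh-Control. The sh-CBX7 libraries were close to each other and all lay below the lowest sh-Control library, which was the first. EGFR averaged 123 ± 1.80 CPM in sh-CBX7 and 173 ± 14.5 CPM in sh-Control (SD, n = 3 each), or 1.41-fold lower in sh-CBX7 (log2 fold change -0.49, SE 0.06, edgeR adjusted p = 8.25e-07). EGFR-AS1, an antisense gene inside the EGFR locus, had 1 to 3 counts in sh-CBX7 libraries and 1 to 9 in sh-Control libraries, and did not pass the low count filter.

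ERBB2, the partner receptor without a ligand (ENSG00000141736; chromosome 17, 39687914 to 39730426, plus strand), had 49.0, 42.9 and 46.8 CPM in sh-CBX7, against 77.0, 70.1 and 69.3 CPM in sh-Control. No sh-CBX7 library reached the lowest sh-Control value. Its means were 46.3 ± 3.11 CPM in sh-CBX7 and 72.1 ± 4.21 CPM in sh-Control (SD, n = 3 each), and its log2 fold change was -0.64 (SE 0.07, edgeR adjusted p = 1.00e-07). The span of ERBB2 shares 8884 bases with PGAP3 and 1931 bases with MIEN1, both on the other strand. PGAP3 had a log2 fold change of -0.62 and MIEN1 one of 0.26. The strand setting of the counting is not given in the sources used here, so reads of these genes and of ERBB2 in the shared stretches cannot be told apart.

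ERBB3, the neuregulin receptor (ENSG00000065361; chromosome 12, 56076799 to 56103505, plus strand), was close to the limit of detection. It had 11, 4 and 1 counts in sh-CBX7, against 17, 23 and 11 counts in sh-Control, which are 0.294 ± 0.267 CPM and 0.986 ± 0.296 CPM (SD, n = 3 each). Its log2 fold change was -1.70 with a wide SE of 0.53 (edgeR adjusted p = 0.0100). ERBB3 passed the low count filter through its sh-Control counts. Its call was lost without sh-CBX7 replicate 3 (edgeR adjusted p = 0.0645, log2 fold change -1.23) and without sh-Control replicate 2 (edgeR adjusted p = 0.0502), and without sh-CBX7 replicate 1 its log2 fold change was -2.70.

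Of the 6 ligands, 3 rose, 1 fell and 2 were not called, where 26.1% of all genes tested were called higher and 27.2% lower. HBEGF, a ligand that binds heparan sulphate and is induced early by many growth and stress signals (ENSG00000113070; chromosome 5, 140332843 to 140346631, minus strand), moved most. It had 98.6, 94.7 and 101 CPM in sh-CBX7, against 32.9, 25.5 and 30.0 CPM in sh-Control. Each sh-CBX7 library was far above the highest sh-Control library, and the spread inside both groups was small. HBEGF averaged 98.1 ± 3.26 CPM in sh-CBX7 and 29.4 ± 3.74 CPM in sh-Control (SD, n = 3 each), or 3.34-fold higher in sh-CBX7 (log2 fold change 1.74, SE 0.08, edgeR adjusted p = 3.51e-14). Only 221 of the 14573 genes tested, HBEGF included, had a log2 fold change as high.

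BTC, betacellulin (ENSG00000174808; chromosome 4, 74744759 to 74794686, minus strand), had 8.48, 10.9 and 9.02 CPM in sh-CBX7, against 5.28, 6.70 and 7.72 CPM in sh-Control. The lowest sh-CBX7 library was only slightly above the highest sh-Control library. Its log2 fold change was 0.52 (SE 0.15, edgeR adjusted p = 0.00579). TGFA, an EGFR ligand that renal carcinoma cells are known to make (ENSG00000163235; chromosome 2, 70447280 to 70554193, minus strand), had 153, 156 and 148 CPM in sh-CBX7, against 128, 139 and 138 CPM in sh-Control. The groups did not overlap, but the difference was small, at 0.17 on the log2 scale (SE 0.06, edgeR adjusted p = 0.0162). The TGFA call was lost without sh-CBX7 replicate 1 (edgeR adjusted p = 0.0511) and without sh-CBX7 replicate 2 (edgeR adjusted p = 0.0795).

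AREG, amphiregulin (ENSG00000109321; chromosome 4, 74445134 to 74455009, plus strand), was the one ligand that fell. It had 9.43, 10.2 and 10.4 CPM in sh-CBX7, against 14.7, 13.2 and 12.6 CPM in sh-Control. The groups did not overlap, and the log2 fold change was -0.43 (SE 0.12, edgeR adjusted p = 0.00370). EREG, epiregulin (ENSG00000124882; chromosome 4, 74365143 to 74388751, plus strand), had 179, 186 and 179 CPM in sh-CBX7, against 167, 195 and 193 CPM in sh-Control. All sh-CBX7 values lay inside the sh-Control range, with a log2 fold change of -0.03 and a 95% interval (normal, from the SE) of -0.15 to 0.09 (edgeR adjusted p = 0.736). EGF, the founding ligand of the family (ENSG00000138798; chromosome 4, 109912884 to 110012266, plus strand), had 6.68, 5.67 and 5.69 CPM in sh-CBX7, against 6.003, 7.69 and 6.99 CPM in sh-Control. These groups overlapped too, with a log2 fold change of -0.20 and a 95% interval of -0.49 to 0.10 (edgeR adjusted p = 0.283).

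ERRFI1, the inhibitor, which is itself induced by receptor signalling and acts as feedback (ENSG00000116285; chromosome 1, 8004404 to 8026308, minus strand), rose. It had 628, 623 and 600.3 CPM in sh-CBX7, against 458, 479 and 481 CPM in sh-Control. Its means were 617 ± 14.6 CPM in sh-CBX7 and 472 ± 13.0 CPM in sh-Control (SD, n = 3 each), which is 1.31-fold higher (log2 fold change 0.39, SE 0.05, edgeR adjusted p = 1.202e-06). The gap between the groups was thus several times the spread inside either.

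**Figure D2:**
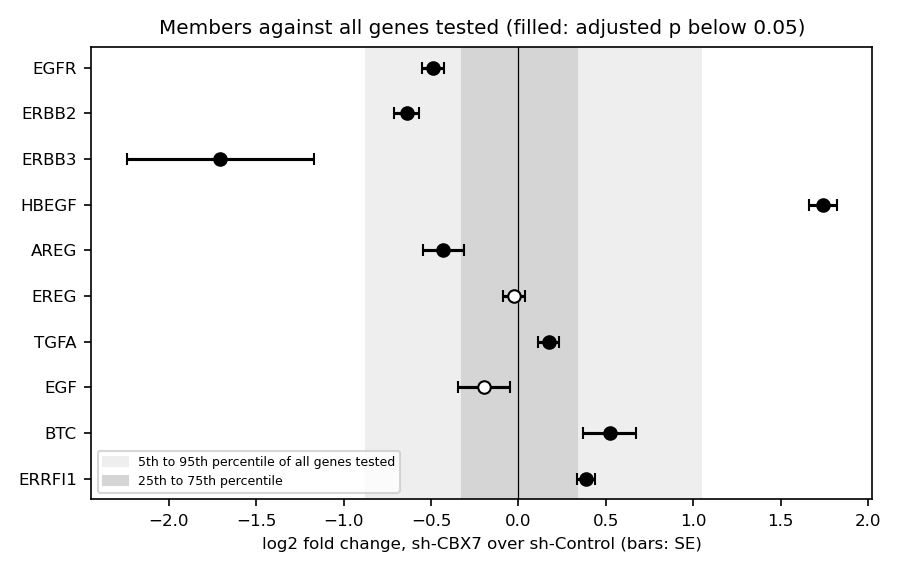
Log2 fold change of each member, sh-CBX7 over sh-Control (x axis), with its SE; filled points have an edgeR adjusted p below 0.05, and grey bands hold the inner shares of all genes tested. HBEGF (1.74) and ERBB3 (-1.70) lie outside the band from the 5th to the 95th percentile (-0.87 to 1.04), and the other 8 members lie inside it.

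Levels of different genes were set beside each other after division by the deposited gene length, in CPM per kilobase. Their order and sums depend on that length, which may differ from the length of the transcript made. ERRFI1 was the highest in both groups, at 147 ± 3.50 CPM per kilobase in sh-CBX7 and 113 ± 3.11 in sh-Control (SD, n = 3 each). In sh-CBX7, HBEGF (32.5 ± 1.08), EREG (31.7 ± 0.696) and TGFA (30.65 ± 0.774) followed at much the same level, the ranges of HBEGF and EREG and those of EREG and TGFA overlapping. EGFR (9.85), AREG (6.08), ERBB2 (4.48), BTC (3.36), EGF (0.981) and ERBB3 (0.0325 CPM per kilobase) came next in that order. In sh-Control the order differed in the place of HBEGF. There EREG (32.3 ± 2.72) and TGFA (27.2 ± 1.23) led the ligands, and EGFR (13.8 ± 1.16) stood above HBEGF (9.76 ± 1.24), whose range overlapped that of AREG (8.18 ± 0.670 CPM per kilobase). ERBB2 (6.99), BTC (2.33), EGF (1.13) and ERBB3 (0.109 CPM per kilobase) were the lowest in sh-Control.

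Summed over the 6 ligands, the level was 105 ± 0.851 CPM per kilobase in sh-CBX7 and 80.9 ± 2.85 in sh-Control (SD, n = 3 each). Without HBEGF the sums were 72.8 ± 1.77 CPM per kilobase in sh-CBX7 and 71.1 ± 3.83 in sh-Control, a difference within the spread of the libraries. HBEGF made up 30.9% ± 1.21 of the ligand sum in sh-CBX7 and 12.1% ± 1.88 in sh-Control. The share of EREG was 30.1% ± 0.432 in sh-CBX7 and 39.9% ± 2.04 in sh-Control, that of TGFA 29.1% ± 0.658 in sh-CBX7 and 33.6% ± 0.469 in sh-Control, and that of AREG 5.77% ± 0.273 in sh-CBX7 and 10.1% ± 1.202 in sh-Control. The 3 receptors summed to 14.4 ± 0.423 CPM per kilobase in sh-CBX7 and 20.9 ± 0.845 in sh-Control. EGFR was 68.6% ± 1.35 of that sum in sh-CBX7 and 66.0% ± 3.09 in sh-Control, so its share differed by less than the spread. No test was made on these sums and shares, which are built from members chosen with results known.

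**Figure D3:**
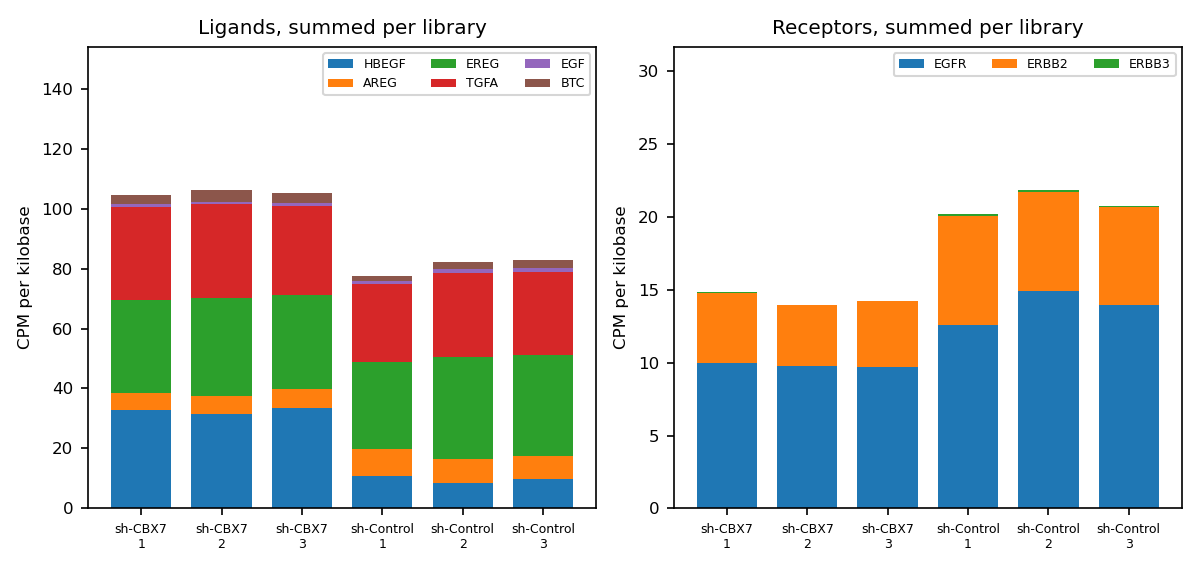
Level per gene length (CPM per kilobase, y axis from 0) of the 6 ligands (left) and 3 receptors (right), stacked for each of 3 sh-CBX7 and 3 sh-Control libraries. The ligand stacks reach 105 to 106 in sh-CBX7 and 77.6 to 82.9 in sh-Control, and the receptor stacks 14.0 to 14.8 in sh-CBX7 and 20.2 to 21.9 in sh-Control.

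Among the members, 4 ligands share chromosome 4. EREG and AREG start 80 kilobases apart on the plus strand, BTC lies 290 kilobases beyond AREG on the minus strand, and EGF lies 35.1 megabases further on. The stretch from the chemokine gene CXCL8 to BTC spans 1054 kilobases and holds 14 protein-coding genes of the table, of which 9 were tested. Of these 9, 5 were higher and 2 were lower in sh-CBX7, against 26.1% higher and 27.2% lower of all genes tested. These neighbours were chosen after their values were seen. The neutrophil chemokines CXCL2, CXCL3, CXCL1 and CXCL8 had log2 fold changes of 1.65, 1.42, 0.96 and 0.44, and CXCL5, another of that group, had -0.59 (SE 0.05 to 0.11). CXCL8 stood at 1326 ± 44.8 CPM in sh-CBX7 and 980.0 ± 37.9 CPM in sh-Control (SD, n = 3 each). EPGN, a further EGF family ligand in the same stretch, had 0 to 3 counts in sh-CBX7 libraries and 0 to 6 in sh-Control libraries and was not tested. Some direct neighbours among the tested genes, such as CXCL5 and CXCL3, had fold changes of opposite sign. Others, such as CXCL3 and CXCL2, shared a sign.

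**Figure D4:**
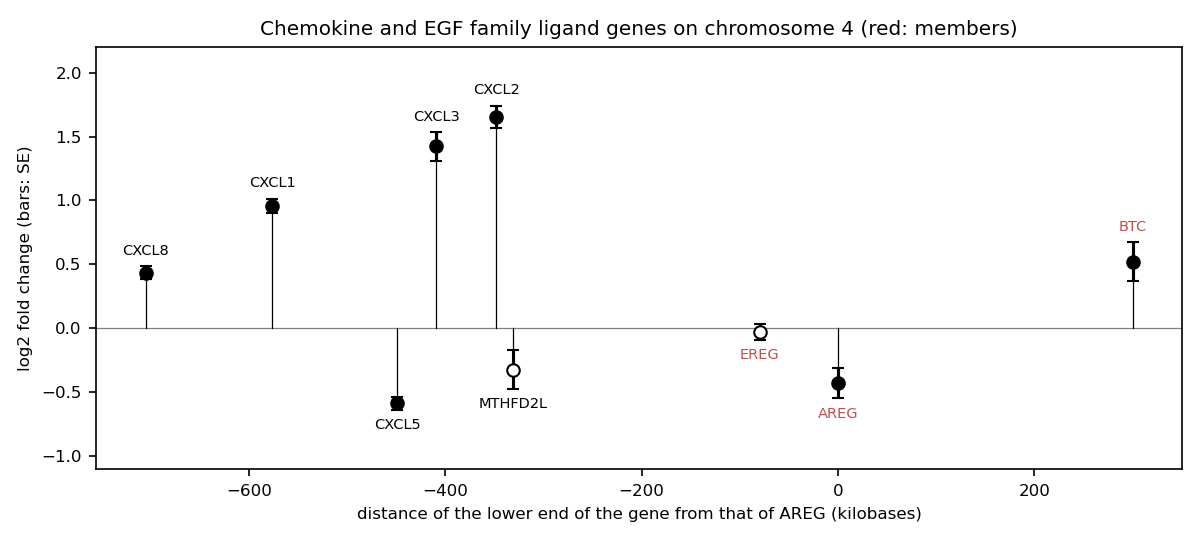
Log2 fold change with SE (y axis) of the 9 tested protein-coding genes from CXCL8 to BTC on chromosome 4 by the distance of the lower end of each gene from that of AREG (x axis, kilobases); filled points have an edgeR adjusted p below 0.05 and members are named in red. AREG (-0.43) and BTC (0.52) lie on either side of 0, with EREG (-0.03) at it.

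Genes that work around the receptors were examined in 8 lists. Beyond the 3 genes of each list with the smallest p, genes are named after their values were seen. The list of 5 other family members held ERBB4, EPGN, NRG2, NRG3 and NRG4. It does not hold every family member, and NRG1 is among those left out. The only tested gene of these 5 was NRG2, a neuregulin that binds ERBB3 and ERBB4. NRG2 was at 18.9 ± 2.23 CPM in sh-CBX7 and 12.8 ± 0.535 CPM in sh-Control (SD, n = 3 each, log2 fold change 0.56). ERBB4 and NRG3 had no count in any library, which allows up to 3 counts in each.

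Of 12 genes of ligand shedding and trafficking, 5 rose, 4 fell and 3 were not called, with a median log2 fold change of 0.23 against -0.01 over all genes tested. ADAM17, the main protease that releases HBEGF, AREG, EREG and TGFA, rose (log2 fold change 0.53, SE 0.07), as did the metalloproteases ADAM19 (1.11) and ADAM12 (0.69), RHBDF1 (0.82), which escorts ADAM17 to the surface, and the inhibitor TIMP1 (0.33). ADAM15 fell by 1.01 on the log2 scale, and RHBDF2 (-0.28), FRMD8 (-0.42) and PACS2 (-0.34), which act on the traffic of ADAM17, fell too. ADAM10, the main protease for EGF and BTC, had 0.12, RHBDL2 -0.03 and TIMP3 1.00, none of them called.

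Among 17 adaptors and proximal signalling genes, 3 rose, 5 fell and 9 were not called (median 0.04). RASA1, a GTPase-activating protein that turns RAS off, was at 15.5 ± 1.06 CPM in sh-CBX7 and 44.1 ± 5.60 CPM in sh-Control (SD, n = 3 each; log2 fold change -1.51, SE 0.10). The phospholipase PLCG1 rose by 0.50, SHC1 by 0.34 and the kinase SRC by 0.32, whereas the adaptors CRKL (-0.49), GRB2 (-0.17) and CRK (-0.17) and the transcription factor STAT3 (-0.20) fell. Without sh-CBX7 replicate 1 or without sh-Control replicate 3, and with upper quartile normalisation, 3 of these genes fell in place of 5, and 3 rose. Of 19 endocytosis and degradation genes 18 were tested, and 5 rose, 5 fell and 8 were not called (median 0.07). SH3KBP1, a CBL partner (0.62), the late endosome GTPase RAB7A (0.69), the epsin EPN1 (0.70), the ubiquitin ligase CBLB (0.59) and RAB5A (0.22) rose. HGS, which sorts ubiquitinated receptors (-0.97), its partner STAM (-0.44), the adaptor subunits AP2A1 (-0.66) and AP2M1 (-0.18) and the clathrin chain CLTC (-0.38) fell.

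Of 12 receptor inhibitors and phosphatases, 4 rose, 2 fell and 6 were not called (median 0.09). PTPN1, a phosphatase that acts on internalised EGFR, was at 28.2 ± 1.56 CPM in sh-CBX7 and 82.2 ± 2.32 CPM in sh-Control (SD, n = 3 each; log2 fold change -1.54, SE 0.07), and the kinase TNK2 also fell (-0.24). Only 1 gene of this list fell without sh-CBX7 replicate 1 or without sh-CBX7 replicate 3, as with DESeq2 and with upper quartile normalisation. The receptor phosphatases PTPRJ (0.91) and PTPRK (0.33), PTPN12 (0.28) and LRIG3 (0.65) rose. Of 5 chaperones, 3 fell, 1 rose and 1 was not called (median -0.62). HSP90AA1 (-1.06) and HSP90AB1 (-0.62), the cytosolic HSP90 proteins, and their kinase co-chaperone CDC37 (-1.04), on which ERBB2 depends for its folding, fell, HSP90B1 of the endoplasmic reticulum rose (0.34) and STUB1 had -0.17.

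Genes used as a readout of ERK signalling moved in both directions. Of 10 such genes, 6 rose, 3 fell and 1 was not called (median 0.59). DUSP6, an ERK phosphatase, was at 56.3 ± 5.33 CPM in sh-CBX7 and 26.4 ± 1.39 CPM in sh-Control (SD, n = 3 each; log2 fold change 1.09, SE 0.08), and ETV4 rose by 0.73. SPRY2 (0.79), DUSP4 (0.76), SPRY4 (0.66) and PHLDA1 (0.53) rose too. Cyclin D1, CCND1 (-0.50), and the ephrin receptors EPHA4 (-0.85) and EPHA2 (-0.22) fell, and ETV5 had -0.02. Of 16 early response genes 15 were tested, and 10 rose, 3 fell and 2 were not called (median 0.52), with DUSP5 at 1.16 and IER3 at 1.00. The others that rose were IER2 (0.90), EGR2 (0.86), KLF6 (0.69), JUNB (0.65), DUSP1 (0.53), JUN (0.52), MYC (0.49) and FOSL1 (0.34). EGR1 (-3.39), FOS (-0.78) and FOSL2 (-0.25) fell, and JUND (0.12) and FOSB (-0.17) were not called. EGR1 was low, at 12, 22 and 13 counts in sh-CBX7, against 158, 173 and 148 counts in sh-Control. Both medians stood above the -0.01 of all genes tested. The shares called, 90.0% and 86.7%, stand beside 53.3% of all genes tested. The lists were chosen with earlier results of these data known, and no test of the lists was made.

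**Figure D5:**
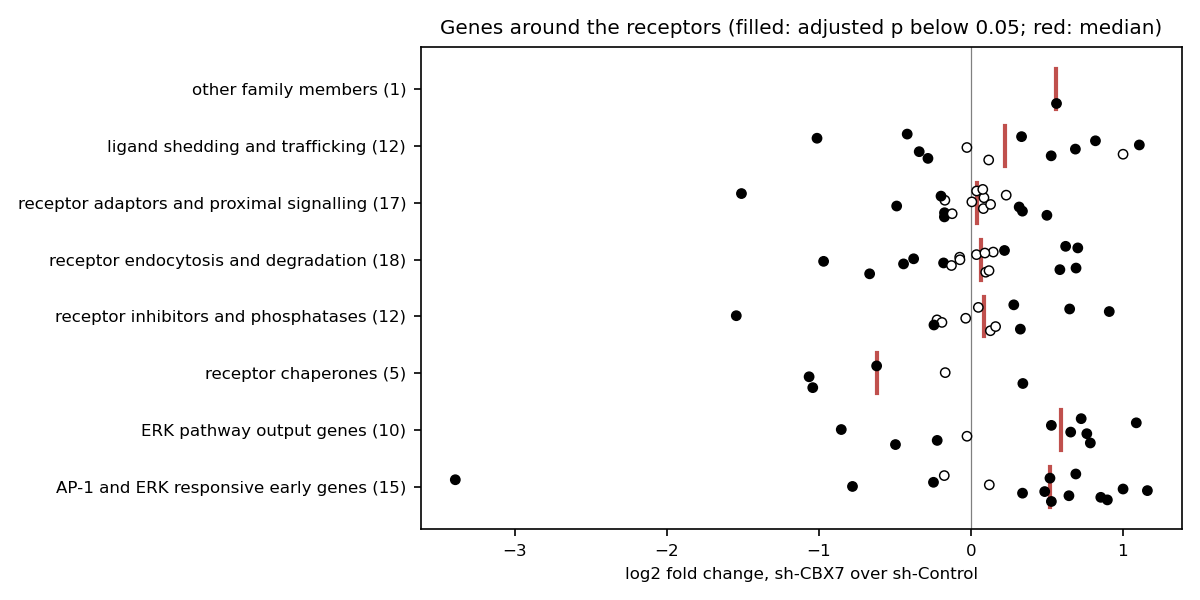
Log2 fold change, sh-CBX7 over sh-Control (x axis), of each tested gene in 8 lists around the receptors, with the number tested in brackets; filled points have an edgeR adjusted p below 0.05 and red lines are list medians. The medians run from -0.62 (chaperones) to 0.59 (ERK pathway output genes), and every list with 5 or more tested genes holds points on both sides of 0.

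By Pearson correlation of log2 CPM over the 6 libraries, the protein-coding genes most like HBEGF among 10265 were BRI3, GOLGA7B and GDF15, a stress-induced cytokine of the TGF-beta superfamily, each at r of 0.9998. The most like EGFR were PTBP3, an RNA-binding protein (0.999), RNF207 (0.998) and the semaphorin SEMA3C (0.998). Above 0.99 there were 360 of the 10265 genes for HBEGF and 62 for EGFR. In libraries that share 2 groups, such a value is thus not particular to the genes named.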

How the data were processed

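Messenger RNA of 786-O cells was selected on poly-T beads and made into directional libraries, per the labels' protocols. The deposited table holds whole-number read counts per gene without normalization. Per the submitters' processing notes, HISAT2 2.0.5, featureCounts 1.5.0-p3, FastQC and Trimmomatic were used, and hg19 is named as build. Gene coordinates in the deposited table equalled those of GENCODE 29 on GRCh38 for all 10 members and 58724 of 58735 genes, so GRCh38 is used. Gene length in bases is the authors' other deposited column used. Columns call the sh-CBX7 libraries siCBX7 and were matched by target and number.

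All genes were fitted together in edgeR 4.0.16 (R 4.3.3): filterByExpr, TMM, and the quasi-likelihood test without a replicate block, with Benjamini-Hochberg adjustment over 14573 genes and a threshold of 0.05. The SE is the log2 fold change divided by the root of F. The test was tried on simulated data in which 100 genes were changed by 0.5 and 100 by 1 on the log2 scale. It called 61.2% of the former, 89.4% of the latter and 0.0573% of the unchanged genes. Far fewer genes were changed there than were called in the data, so these shares need not hold for the data. Depth per library was 16384151 to 18868874 counts. Alternatives were RLE, library size alone, upper quartile, no filter, DESeq2 1.42.0, limma voom 3.58.1, a replicate block and leaving out each library. By rule, named genes were the members, CBX7, up to 3 genes per list by smallest p, overlapping genes, and the 3 genes most like HBEGF and EGFR with a mean of at least 5 CPM; further list genes and the chromosome 4 neighbours were named after their values were seen. Members, lists and motifs were chosen with earlier results of these data known. Promoters are RefSeq's, for 9 of 10 members.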

Additional observations from a re-analysis of the deposited data

How the results depend on the processing

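HBEGF, EGFR, ERBB2, ERRFI1, AREG and BTC kept direction and call in each of the 13 alternatives; HBEGF ran from 1.64 to 1.83 on the log2 scale, EGFR from -0.55 to -0.44 and BTC from 0.39 to 0.65 (highest edgeR adjusted p = 0.0487). Leaving out single libraries, the log2 fold change of ERBB3 ran from -2.70 to -1.23, that of TGFA from 0.14 to 0.19, and that of EREG, not called, from -0.0958 to 0.00918; EREG was at 0.0219 with upper quartile normalisation. EGF was called in none. The summed ligand level in sh-CBX7 was 107 CPM per kilobase with upper quartile normalisation; the cause of these shifts was not tested. A fit with a replicate block called 3972 genes higher and 4126 lower, and no member changed its call in it. Same-numbered libraries shared deviations at correlations of 0.0553, 0.0614 and 0.0353, each above those with other numbers (-0.0474 to -0.00888), which is too weak to treat the numbers as pairs. Counts of genes higher and lower over all genes, and the total called per list, stayed within 1.5 times in every alternative. By direction, 2 lists went beyond that: the adaptors that fell numbered 3 in place of 5, and the inhibitors and phosphatases that fell 1 in place of 2, in the settings named beside those lists. Depth limits ERBB3 most, at 1 to 23 counts per library, and next EGF and BTC, whose SE of 0.15 is near the size of small changes.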

Other observations

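Ratios within a library do not depend on the normalisation between libraries, but their size depends on the deposited gene lengths. Per gene length, HBEGF stood at 3.26, 3.20 and 3.45 times the level of EGFR in the sh-CBX7 libraries, against 0.864, 0.566 and 0.711 times in the sh-Control libraries. The ratio of HBEGF to AREG was 5.36 ± 0.321 in sh-CBX7 and 1.19 ± 0.126 in sh-Control (SD, n = 3 each). That of EGFR to ERBB2 was 2.204 ± 0.137 in sh-CBX7 and 1.99 ± 0.264 in sh-Control, a difference within the spread of the libraries. The EGFR to ERBB2 ratio was lowest in sh-Control replicate 1, at 1.69, where EGFR was lowest and ERBB2 highest of the sh-Control libraries.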
